A study of Mus musculus with 20 samples.

Results

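Oocytes and 1-cell embryos of the mouse, which live on RNA made by the mother, were set against 8-cell embryos and blastocysts, which live on RNA made by the embryo. The maternal pool held 8 arrays (4 of oocytes and 4 of 1-cell embryos) and the embryonic pool held 8 arrays (4 of 8-cell embryos and 4 of blastocysts), so 16 of the 20 arrays of the series were used. Arrays were assigned by the stage in their titles, each stage had equal weight in its pool, and the 2-cell arrays, which lie between the pools, were left out. On every array the total RNA had gone through 2 rounds of amplification by in vitro transcription before it was hybridized to the Affymetrix MOE430A array. The labels give no strain, age, hormone treatment, meiotic stage, culture condition, collection time or number of oocytes or embryos per array for any stage, and they name no treatment or allele that sets the groups apart. Nothing says that the 4 arrays of a stage came from separate collections, so p-values measure the spread between arrays, which may be technical.

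The growing oocyte of the mouse fills its cytoplasm with RNA and then stops transcription before ovulation. After fertilization this store is translated, deadenylated and degraded, while the embryonic genome is switched on, mainly at the 2-cell stage, with a minor wave before it. The 8-cell embryo compacts and polarizes, and the blastocyst holds an outer epithelium, the trophectoderm, around an inner cell mass that keeps pluripotency.

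Much of what the array measures differed between the pools. Levels are the deposited signal intensities, and differences are embryonic minus maternal on the log2(intensity + 11.8) scale, which understates the change of low genes. Of 22626 probe sets, 12417 passed limma's test at a Benjamini-Hochberg adjusted p under 0.05 (54.9%), with 6246 higher in the embryonic pool (27.6%) and 6171 lower (27.3%). With 1 probe set for each of 12393 genes, 3355 genes were higher (27.1%) and 3789 were lower (30.6%). The pool average can hide opposed stages, so a stricter count was kept beside it: the genes that passed in the same direction in all 4 stage pairs (8-cell or blastocyst against oocyte or 1-cell). That count was 1584 genes higher (12.8%) and 1972 lower (15.9%). The 4 pairs share arrays and are not independent. Among these genes the pooled difference was at least 2-fold for 1466 that were higher and 1829 that were lower, and at least 16-fold for 116 and 173. In 1434 genes (11.6%) all 8 embryonic values lay above all 8 maternal values, and in 1755 (14.2%) all lay below. The fit measures error by the spread within stages. With stage as a random block 6883 probe sets were called, and 4087 were with each stage's mean as 1 value.

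**Figure D1:**
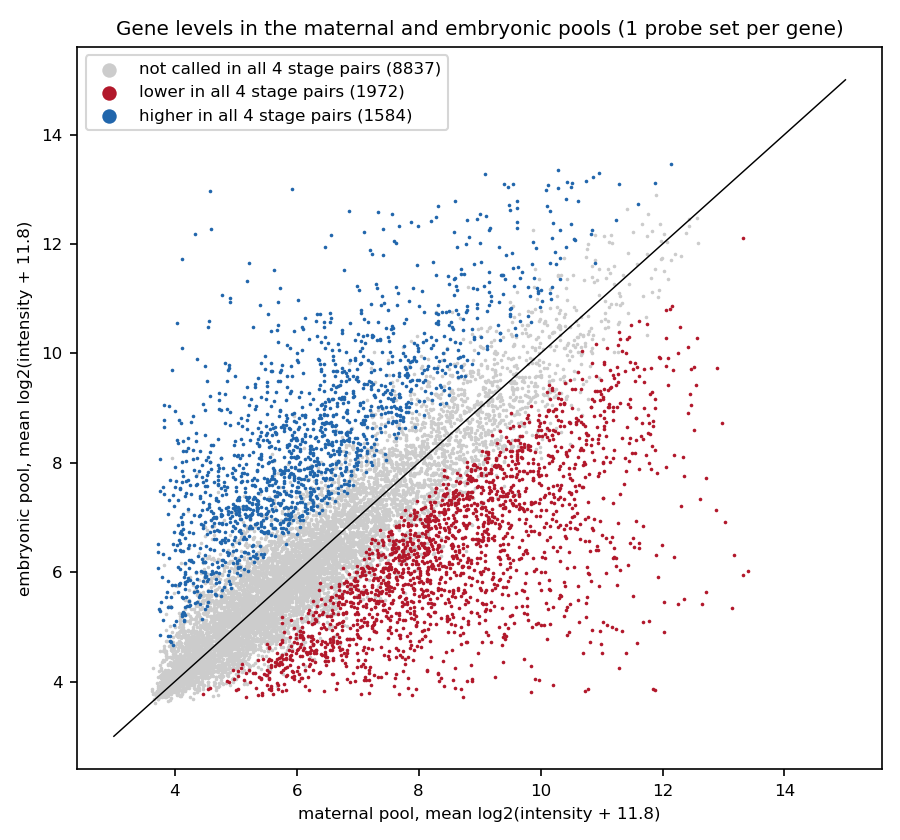
Mean level of each of 12393 genes in the maternal pool (x axis) and the embryonic pool (y axis), both as log2(intensity + 11.8), with 1 probe set per gene and the line of equal levels. The 1972 genes lower in all 4 stage pairs (red) lie below the line and the 1584 higher (blue) above it.

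The step between the pools was wider than the step within either. The median absolute difference over genes was 0.57 on the log2 scale between the pools, 0.35 between 1-cell embryos and oocytes, and 0.5 between blastocysts and 8-cell embryos. Pearson correlations of log2 values between arrays, given as a description over all probe sets, were 0.94 to 0.974 within a stage, 0.871 to 0.921 between oocyte and 1-cell arrays, 0.847 to 0.892 between 8-cell and blastocyst arrays, and 0.601 to 0.721 across the pools. The stages of a pool were not alike, since 5253 probe sets (23.2%) differed between 1-cell embryos and oocytes and 7719 (34.1%) between blastocysts and 8-cell embryos.

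Array measures other than gene levels also differed between the pools or between single stages, and their part in the results was not tested. The ratio of the 3′ to the 5′ actin control was 3.45 to 6.01 on maternal arrays (median 4.5) and 1.52 to 3.9 on embryonic arrays (median 2.84). The same ratio for Gapdh was 2.82 to 6.31 and 0.777 to 8.31. It was 0.777 to 1.86 on the 8-cell arrays and 3.51 to 8.31 on the blastocyst arrays. The 18S ribosomal RNA control read 143.2 to 15355.4 on maternal arrays and 402.4 to 1127.7 on embryonic arrays. The maternal range joins 143.2 to 261.4 on oocyte arrays with 11006.5 to 15355.4 on 1-cell arrays. Each array had been scaled to the same trimmed mean (150.05 to 150.08), so a value is a share of an array's signal and total RNA per oocyte or embryo is not kept: fewer cells of a type and less RNA per cell cannot be told apart. Scaling the arrays on the hybridization controls instead moved the median of all probe sets by -0.19 on the log2 scale. Of 11671 called probe sets 38.1% were then higher, against 50.3% with the deposited scaling. The hybridization controls averaged 8.72 to 9.53 on the log2 scale on oocyte arrays and 9.95 to 10.73 on 1-cell arrays. They averaged 10.22 to 10.79 on 8-cell arrays and 9.01 to 9.68 on blastocyst arrays. This scaling thus moves differences within a pool, with 7591 probe sets called in the maternal and 8143 in the embryonic pool. Directions within a pool are given throughout for the deposited scaling only.

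The falls were led by genes of the oocyte. Here and below, a value in brackets after a gene is its pooled log2 difference with its SE unless another contrast is named, and stage means carry the SD over 4 arrays. Rfpl4, an oocyte RING finger gene, read 2784, 3498, 2946 and 2716 on the oocyte arrays, 4539.8, 4808, 4937 and 4654 on the 1-cell arrays, 9.7, 2.3, 2.2 and 5.1 on the 8-cell arrays and 0.5, 0.9, 1.2 and 0.9 on the blastocyst arrays. Every maternal value was at least 2716 and every embryonic value was below 10, and the pooled log2 difference was -8.02 ± 0.11 (8 against 8 arrays, adjusted p = 2.63e-22). Btg4, the adaptor that brings the CCR4-NOT deadenylase to maternal mRNA, read 6739, 8202, 7091 and 7147 on the oocyte arrays, 11515, 12384, 10997 and 9899 on the 1-cell arrays, 110.2, 53.2, 52.5 and 74.3 on the 8-cell arrays and 3.6, 22.1, 10.6 and 2.9 on the blastocyst arrays. The 1-cell arrays were the highest and the blastocyst arrays the lowest, with no overlap between the pools (log2 difference -7.79 ± 0.16, adjusted p = 2.04e-19). Mos, a kinase that keeps the unfertilized egg arrested, read 2838, 3013, 2588 and 3099 on the oocyte arrays, 1296, 1339.8, 1155 and 470.4 on the 1-cell arrays, 2.9, 4, 2.2 and 3.8 on the 8-cell arrays and 0.9, 1.2, 2.7 and 1.6 on the blastocyst arrays. It was lower in 1-cell embryos than in oocytes (log2 difference -1.53 ± 0.24) and close to 0 in all embryonic arrays (pooled -6.90 ± 0.17).

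Other genes with the largest falls among those with established symbols are listed here by role. H1f8, the oocyte linker histone, averaged 2080 ± 215 in oocytes, 3640 ± 1060 in 1-cell and 14 ± 5.19 in 8-cell embryos and 10.3 ± 8.18 in blastocysts, a log2 difference of -6.87 ± 0.18. Obox2, a homeobox gene of the oocyte, changed by -7.38 on the log2 scale, from 13600 ± 2200 in 1-cell embryos to 26.2 ± 4.1 in blastocysts, read by a probe set that may also bind related transcripts. Bcl2l10, a BCL2 family member, and Rgs2, a regulator of G protein signalling, changed by -7.36 and -7.12, and both were higher in 1-cell embryos than in oocytes. Dnajb4, a co-chaperone of the heat shock proteins, read 2640 ± 333 in oocytes and 2.85 ± 0.52 in blastocysts (-7.97 ± 0.10). Bpgm, which makes bisphosphoglycerate, changed by -7.23 ± 0.10, and all 3 of its probe sets were called lower. The oligoadenylate synthetase family members Oas1e and Oas1c changed by -7.09 ± 0.27 and -7.05 ± 0.16, the carboxypeptidase Cpa1 by -6.92 ± 0.11, Parp12 by -6.88 ± 0.19 and the polycystin family gene Pkd2l2 by -6.68 ± 0.12.

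On the other side stood genes that were near 0 in oocytes. Crxos, a homeobox gene of the early embryo, read 1.4, 15.2, 17 and 14.7 on the oocyte arrays, 7.4, 8, 7.2 and 39.9 on the 1-cell arrays, 12574, 12438, 9883 and 8620.5 on the 8-cell arrays and 6125, 6448, 6507 and 4725 on the blastocyst arrays. The lowest embryonic value exceeded the highest maternal value by a wide margin. The log2 difference of 8.39 ± 0.20 (adjusted p = 1.4e-18) was the largest rise among the named genes. Pramel7, a PRAME family gene linked to naive pluripotency, read 4.1, 3.8, 3.7 and 2.8 on the oocyte arrays, 8.9, 7.3, 6.6 and 7.1 on the 1-cell arrays, 4898, 4905, 4396 and 5333 on the 8-cell arrays and 2074, 2473, 2455 and 2378 on the blastocyst arrays. Its 8-cell arrays were above its blastocyst arrays, and the difference was 7.62 ± 0.09 (adjusted p = 1e-22), read by a probe set that may also bind related transcripts. Krt18, a keratin of simple epithelia, read 6.2, 4.1, 5.1 and 4.3 on the oocyte arrays, 17.5, 22.3, 29.1 and 16.7 on the 1-cell arrays, 222, 600.4, 337 and 422 on the 8-cell arrays and 4573, 6242, 5362 and 5206 on the blastocyst arrays. It rose in steps, with every 1-cell value above every oocyte value and the blastocysts highest (pooled 5.93 ± 0.16, blastocyst minus 8-cell 3.79 ± 0.22).

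**Figure D2:**
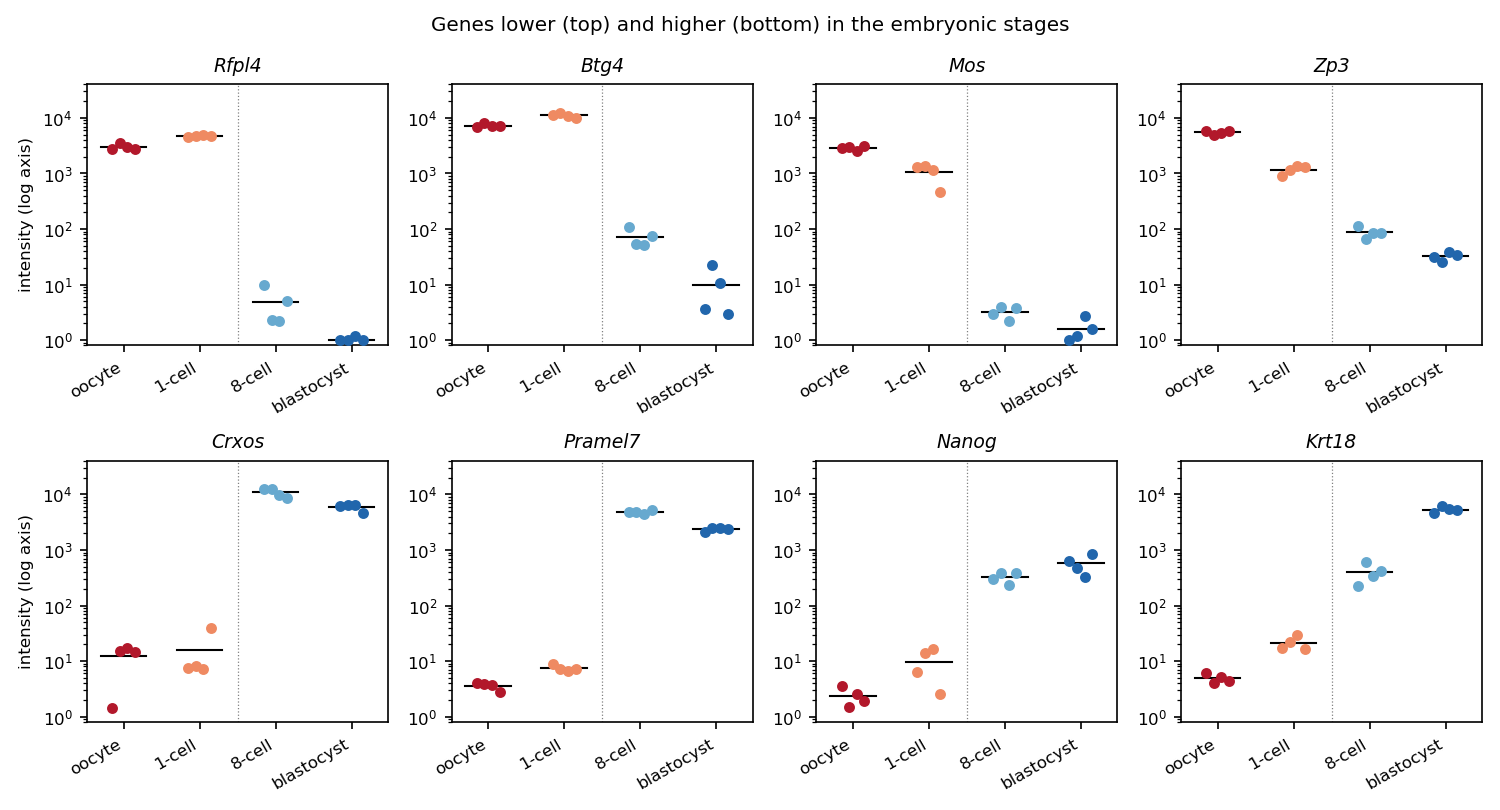
Intensity on each array (points, log axis; values under 1 are drawn at 1) with the stage mean (line) for 4 genes that fell (top) and 4 that rose (bottom), 4 arrays per stage, with a dotted line between the pools. Krt18 and Nanog were highest in blastocysts, while Crxos and Pramel7 were highest in 8-cell embryos.

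Enzymes of small-molecule metabolism made up part of the other large rises. Bhmt, which remethylates homocysteine with betaine, averaged 10.5 ± 6.93 in oocytes, 7.32 ± 4.16 in 1-cell and 8530 ± 313 in 8-cell embryos and 2640 ± 912 in blastocysts (7.86 ± 0.16). Psat1 of serine synthesis, Prps1 of nucleotide synthesis and Nme2, a nucleoside diphosphate kinase, rose by 6.03 ± 0.21, 6.04 ± 0.21 and 7.08 ± 0.13. The metallothioneins Mt1 and Mt2, which bind zinc and copper, rose by 6.11 ± 0.17 and 5.74 ± 0.15. Only 1 of the 2 probe sets of Mt1 was called, and it may also bind related transcripts. The lysosomal proteases Ctsc and Ctsl rose by 6.43 ± 0.17 and 5.91 ± 0.14, the autophagy receptor Calcoco2 by 7.69 ± 0.20, the heme-regulated repressor Bach1 by 6.52 ± 0.14, the ferritin receptor Timd2 by 6.14 ± 0.24 and the adhesion molecule Epcam by 5.96 ± 0.15. Epcam was higher in blastocysts than in 8-cell embryos (log2 difference 3.21 ± 0.21), and the other genes of this paragraph had their highest mean at the 8-cell stage.

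Among the named genes, Rfpl4 had the largest fall and Crxos the largest rise. The stretches just upstream of their starts are shown, with those of a zona pellucida gene and a trophectoderm keratin. They hold 150 bases before the annotated start in RefSeq (GRCm38.p6), 5′ to 3′, with capitals on matches to the searched motifs. They lie at chr7:5116912-5117061 (minus strand) for Rfpl4, chr7:15882467-15882616 (plus strand) for Crxos, chr5:135979955-135980104 (plus strand) for Zp3 and chr15:102028066-102028215 (plus strand) for Krt18.
Rfpl4: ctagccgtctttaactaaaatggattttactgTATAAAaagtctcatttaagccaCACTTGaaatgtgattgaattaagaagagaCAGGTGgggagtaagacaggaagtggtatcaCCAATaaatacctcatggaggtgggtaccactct
Crxos: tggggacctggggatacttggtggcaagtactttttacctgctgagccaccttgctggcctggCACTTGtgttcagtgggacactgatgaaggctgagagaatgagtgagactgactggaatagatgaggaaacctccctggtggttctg
Zp3: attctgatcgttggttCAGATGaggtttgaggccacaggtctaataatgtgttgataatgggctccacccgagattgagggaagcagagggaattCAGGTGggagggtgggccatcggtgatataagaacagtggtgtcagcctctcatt
Krt18: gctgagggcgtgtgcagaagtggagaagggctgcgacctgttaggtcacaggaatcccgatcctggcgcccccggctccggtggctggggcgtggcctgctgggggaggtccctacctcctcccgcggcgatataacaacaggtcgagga
The Rfpl4 window held matches to the TATA and CCAAT motifs and 2 E-boxes, the Crxos window 1 E-box, the Zp3 window 2 E-boxes, and the Krt18 window no match but 11 CpG dinucleotides and a GC content of 66.7%, against 38.7% for Rfpl4. E-boxes (CANNTG) are bound by factors such as FIGLA in the oocyte. The motifs were sought on both strands in the 250 bases before the start, and the letters of some can overlap.

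Motif shares over all genes were counted next. A promoter was found for 9882 of the 12393 genes. CANNTG was present in 58.7% of 1623 genes lower in all 4 pairs, 55.9% of 1307 higher in all 4 and 59.4% of all 9882. GGGCGG was present in 60.9%, 60.6% and 53.2%, CCGGAAG in 12.7%, 18% and 11.6%, CCAAT in 35.5%, 33.9% and 35.8%, TATAAA in 6.04%, 7.04% and 9.14%, TAATTG or TAATTA in 7.83%, 5.05% and 7.48%, and the motif of the factor YY1 in 0.37%, 0.459% and 0.344%. For the 139 genes lower by at least 16-fold, GGGCGG stood in 46% and TATAAA in 10.8%, and the median CpG ratio (observed over expected) was 0.589 against 0.665 for all genes, although it was 0.737 in the 1623 genes lower in all 4 pairs and 0.761 in the 1307 higher. For the 96 higher by at least 16-fold, the shares were 51% and 3.12% and the ratio 0.656. CANNTG stood in 59.7% of the 139 and 68.8% of the 96. These shares were not tested, and a match is a run of letters, not a shown binding site. Among all 27025 RefSeq promoters, which include genes with no probe set here, CANNTG stood in 66%, GGGCGG in 32.9%, CCGGAAG in 7.05%, CCAAT in 34.5%, TATAAA in 13%, TAATTG or TAATTA in 11.5% and the YY1 motif in 0.218%.

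Genes were next read by function, through lists chosen with earlier results of these data known. The share called among all genes (27.1% higher and 30.6% lower in the pooled comparison) is the level against which each list's count should be read, and the median pooled difference of all genes was -0.038. No list was tested as a set. All genes also shifted under other fits, and list counts from such a fit should be read against these. Of 12393 genes, 3066 were higher and 3503 lower without the oocyte arrays (median -0.08). Without the 1-cell arrays these were 2995 and 3408 (0), and without the 8-cell arrays 3054 and 4066 (-0.18). Without the blastocyst arrays they were 3304 and 3308 (0.09), and under hybridization control scaling 2352 and 4393 (-0.26).

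**Figure D3:**
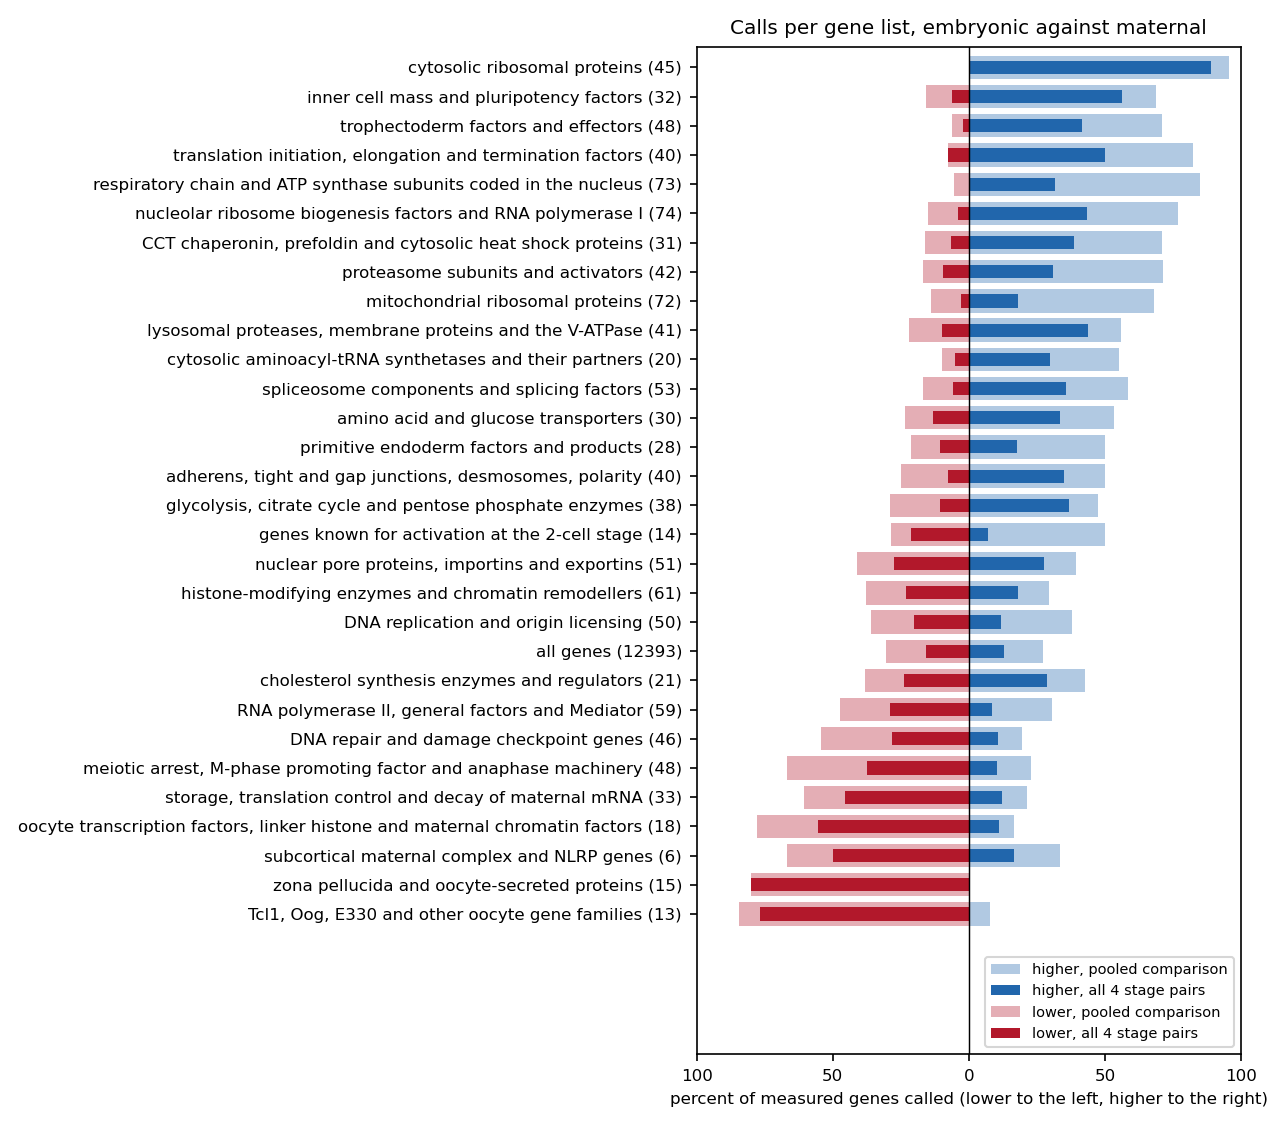
Percent of the measured genes of each list (number in brackets) called lower (left, red) or higher (right, blue) in the embryonic pool, pale for the pooled comparison and dark for all 4 stage pairs, ordered by the list's median pooled difference. Cytosolic ribosomal proteins stand at one end (43 of 45 higher) and oocyte gene families at the other (11 of 13 lower).

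Proteins that oocytes secrete or lay down as the zona pellucida, the coat of the egg, were lower in the embryonic pool: 12 of 15 measured genes fell in the pooled comparison and in all 4 pairs, none rose, and the median difference was -4.57. The remaining 3 (Spock2, Kitl and Lefty1) did not pass. Zp3, a glycoprotein of the zona, read 5830.4, 4962, 5395 and 5768 on the oocyte arrays, 896, 1159.5, 1339 and 1311 on the 1-cell arrays, 115, 66, 84.9 and 84.3 on the 8-cell arrays and 31.6, 25.1, 39 and 34.2 on the blastocyst arrays. Its arrays did not overlap between any 2 stages, with a log2 difference of -2.23 ± 0.17 for 1-cell minus oocyte and -5.27 ± 0.12 between the pools. Zp2 followed the same order, with 5390 ± 452 in oocytes, 582 ± 24.1 in 1-cell and 113 ± 24.1 in 8-cell embryos and 45.2 ± 8.9 in blastocysts. The growth factors Gdf9 and Bmp15, by which the oocyte instructs its follicle cells, behaved otherwise inside the maternal pool. Gdf9 averaged 7590 ± 709 in oocytes and 9210 ± 1020 in 1-cell embryos and Bmp15 746 ± 105 and 1370 ± 378, and they fell by the embryonic stages to 177 ± 31.1 and 5.35 ± 5.34 at the 8-cell stage (pooled -6.11 ± 0.11 and -5.95 ± 0.17). Oosp1, an oocyte-secreted protein, changed by -6.84 ± 0.12.

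Oocyte gene families of the Tcl1 and Oog kind had a median of -5.29, with 11 of 13 members lower and 1 higher (10 and 0 in all 4 pairs). E330034G19Rik averaged 3980 ± 403 in oocytes, 7000 ± 1370 in 1-cell and 76.8 ± 14.5 in 8-cell embryos and 11.9 ± 3.51 in blastocysts (-6.85 ± 0.12). Of the 13 members, 10 were higher in 1-cell embryos than in oocytes and 1 was lower (all genes: 1494 and 1634 of 12393). The member that rose, Gtsf1l, was highest in blastocysts at 214 ± 21.5 (1.14 ± 0.15), and it was not called when the blastocyst arrays were left out. For a list of NLRP genes and the subcortical maternal complex, the protein assembly under the egg membrane that early cleavage needs, 6 genes were measured. Nlrp5 averaged 4960 ± 722 in oocytes, 2280 ± 775 in 1-cell and 60.2 ± 14.1 in 8-cell embryos and 4.58 ± 2.17 in blastocysts (-6.59 ± 0.15), Zbed3 changed by -5.74 ± 0.15, and Tle6 and Nlrp4c also fell. Without the 8-cell arrays 3 of the 6 were lower and 3 higher. The listed genes that rose were Trip13, a remodeller of checkpoint complexes (3.60 ± 0.13), and Cfl1, the actin-severing cofilin (0.97 ± 0.12). Both have roles outside the complex, and their rise is not a result about its subunits. Of the 2 probe sets of Cfl1, 1 was called, and it may also bind related transcripts.

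Transcription factors, linker histone and chromatin proteins of the oocyte included 18 measured genes, of which 14 fell and 3 rose (10 and 2 in all 4 pairs, median -1.05). Dnmt1, the maintenance DNA methyltransferase, read 3998, 3318, 3715 and 4576 on the oocyte arrays, 1807, 1939.8, 1859 and 1603 on the 1-cell arrays, 158, 155, 120 and 147 on the 8-cell arrays and 226, 298, 231 and 204 on the blastocyst arrays. Every maternal value was above every embryonic value, and its blastocyst arrays were above its 8-cell arrays (-3.75 ± 0.10, adjusted p = 1.55e-17). The largest rises in the list were in Smarca4, the ATPase of the BAF remodeller (1.28 ± 0.13), and Trim28, the corepressor of zinc finger proteins (0.92 ± 0.13). For Smarca4, 1 of 2 probe sets was called. Dppa3, which protects the maternal genome from demethylation, averaged 3620 ± 287 in oocytes, 5660 ± 769 in 1-cell and 5030 ± 1130 in 8-cell embryos and 2260 ± 398 in blastocysts, and its pooled difference of -0.44 ± 0.13 became 0.13 without the blastocyst arrays and -0.13 without the 1-cell arrays, not called in either.

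Genes that store, mask, translate or destroy maternal mRNA fell in 20 of 33 cases and rose in 7 (15 and 4 in all 4 pairs, median -1.03). Beside Btg4, Dazl, an RNA-binding protein that activates translation in the egg, averaged 1330 ± 161 in oocytes, 2340 ± 783 in 1-cell embryos and 23.2 ± 7.35 in blastocysts (-5.22 ± 0.15). The rises were headed by Pabpc1, the poly(A)-binding protein of somatic cells, which read 390.3, 178, 246 and 221 on the oocyte arrays, 189, 116, 121 and 118 on the 1-cell arrays, 4687, 4430.4, 3899.8 and 3322 on the 8-cell arrays and 4430.5, 5017, 4358 and 3921 on the blastocyst arrays. The 8-cell and blastocyst arrays were alike and all far above the maternal ones (4.45 ± 0.14, adjusted p = 1.39e-16). Cpeb2, of the family that controls polyadenylation in the cytoplasm, rose from 10.6 ± 4.28 in oocytes to 200 ± 62.1 at the 8-cell stage (2.64 ± 0.18). For meiotic arrest, M-phase promoting factor and the anaphase machinery, 32 of 48 genes fell and 11 rose (18 and 5 in all 4 pairs, median -0.62). Ube2c, a ubiquitin-conjugating enzyme of the anaphase-promoting complex, rose by 1.99 ± 0.14, and Cdc23, a subunit of that complex, by 2.85 ± 0.17, but the second probe set of Cdc23 was called in the opposite direction.

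Genes listed for known activation at the 2-cell stage went both ways. Of 14 measured, 7 were higher and 4 lower in the pooled comparison, and 1 and 3 in all 4 pairs. Without the 8-cell arrays 2 were higher and 6 lower, and the median turned from 0.33 to -0.38, while that of all genes was -0.18. Eif1a, a translation initiation factor, averaged 66.4 ± 23.7 in oocytes, 55.3 ± 11.1 in 1-cell and 425 ± 73.6 in 8-cell embryos and 475 ± 76 in blastocysts (2.69 ± 0.15). Hspa1b, the inducible heat shock protein, varied widely between 8-cell arrays (584, 1698, 572 and 624) and was called at 1.96 ± 0.33 in the pooled comparison but not in all 4 pairs, nor without the 8-cell arrays (0.94). Arg2, a mitochondrial arginase, and Tcstv1 fell, with log2 differences of -4.84 and -2.70. Not all of these genes peaked on the 2-cell arrays, which the comparison left out. Hspa1b and Tcstv1 had their highest stage mean there, at 907 ± 142 and 357 ± 191. Eif1a and Arg2 did not, at 91.1 ± 14.3 and 384 ± 91.6, and the probe set of Eif1a may also bind related transcripts.

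Inner cell mass and pluripotency factors rose in 22 of 32 cases and fell in 5 (18 and 2 in all 4 pairs, median 1.81). Nanog, the homeobox factor of the epiblast, read 3.5, 1.5, 2.5 and 1.9 on the oocyte arrays, 6.3, 13.7, 16.2 and 2.6 on the 1-cell arrays, 294, 378, 234 and 392 on the 8-cell arrays and 636, 473, 319.8 and 857 on the blastocyst arrays. Its highest maternal value was far under its lowest embryonic one (4.63 ± 0.20, adjusted p = 1.32e-14). Fbxo15, a ubiquitin ligase adaptor used as a pluripotency reporter, averaged 114 ± 7.33 in oocytes, 277 ± 29 in 1-cell and 12000 ± 2010 in 8-cell embryos and 3050 ± 594 in blastocysts (4.98 ± 0.11). Sox2 was called in all 4 pairs but rose mainly by the blastocyst, with 15.4 ± 2.45 in oocytes, 25.6 ± 8.56 in 1-cell and 50.4 ± 14.6 in 8-cell embryos and 232 ± 25.5 in blastocysts (1.95 ± 0.17). Pou5f1, the OCT4 gene, was already read in oocytes at 253 ± 36.9 and rose less, to 633 ± 85.2 at the 8-cell stage and 636 ± 96.5 in blastocysts (0.92 ± 0.13), with overlap between the pools. Gbx2 and Lin28a fell, with log2 differences of -3.67 and -1.23.

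Trophectoderm factors and effectors rose in 34 of 48 cases and fell in 3 (20 and 1 in all 4 pairs, median 1.64, or 0.75 without the blastocyst arrays). Within the pool, 30 members were higher in blastocysts than in 8-cell embryos and 9 lower, against 2022 and 2578 of all 12393 genes, and the list's median was 0.83 for 8-cell minus oocyte and 2.44 for blastocyst minus oocyte. Cdx2, the homeobox factor that specifies the lineage, read 7.9, 10.9, 7.1 and 5.5 on the oocyte arrays, 7.1, 9, 7.3 and 10 on the 1-cell arrays, 27, 162, 226 and 111 on the 8-cell arrays and 428, 474, 516 and 379 on the blastocyst arrays. The 8-cell arrays spread the most, from 27 to 226, and stayed under the blastocyst arrays (3.55 ± 0.26). Krt8, the partner of Krt18, averaged 58.8 ± 18 in oocytes, 73.6 ± 41.6 in 1-cell and 348 ± 90.3 in 8-cell embryos and 4370 ± 290 in blastocysts (4.08 ± 0.19), and Fabp3, a fatty acid binding protein, 18.6 ± 4.13 in oocytes, 21.2 ± 5.88 in 1-cell and 171 ± 22.5 in 8-cell embryos and 3280 ± 706 in blastocysts (4.61 ± 0.13). Atp1b1, a subunit of the sodium pump, averaged 1440 ± 304 in blastocysts against 300 ± 60.6 at the 8-cell stage, and was not called without the blastocyst arrays. Yap1, the Hippo coactivator that works through Tead4, went the other way at 3450 ± 250 in oocytes, 6220 ± 1070 in 1-cell and 847 ± 166 in 8-cell embryos and 802 ± 112 in blastocysts (-2.48 ± 0.12). Only 1 of the 2 probe sets of Yap1 was called. Bmp7 and Dlx3 also fell, and the number that fell was 1 without the 1-cell arrays and 5 without the 8-cell arrays. For Bmp7, 1 of 3 probe sets was called, at low stage means of 18.2 to 40.3 (-0.63 ± 0.26).

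Of 28 primitive endoderm genes 14 rose and 6 fell (5 and 3 in all 4 pairs, median 0.43). The median was 0.15 without the blastocyst arrays, with 10 higher and 6 lower, and 0.90 without the 8-cell arrays. Within the pool 12 were higher in blastocysts and 3 lower, against 2022 and 2578 of all 12393 genes. Gata6, which specifies this lineage, averaged 68.2 ± 7.09 in oocytes, 108 ± 25.7 in 1-cell and 1060 ± 118 in 8-cell embryos and 630 ± 90.4 in blastocysts (3.09 ± 0.12). The collagen hydroxylase P4ha2 and the endocytic receptor Lrp2 rose by 3.63 ± 0.17 and 3.43 ± 0.25, whereas the laminin chain Lamb1 fell from 2540 ± 238 in oocytes to 104 ± 15.4 at the 8-cell stage (-3.20 ± 0.14) and the proteoglycan Srgn changed by -3.23 ± 0.17. Junction and polarity genes rose in 20 of 40 cases and fell in 10 (14 and 3 in all 4 pairs, median 0.41), and 6 fell without the 1-cell arrays. The median was 0.05 without the blastocyst arrays. Gja1, the connexin of gap junctions, averaged 320 ± 149 in oocytes, 57.2 ± 30 in 1-cell and 6310 ± 662 in 8-cell embryos and 3620 ± 610 in blastocysts (5.11 ± 0.23), with all 6 of its probe sets called higher. Cdh1, the E-cadherin of compaction, had 588 ± 91.3 in oocytes, 560 ± 149 in 1-cell and 505 ± 101 in 8-cell embryos and 995 ± 167 in blastocysts, and its difference of 0.31 ± 0.14 did not pass (adjusted p = 0.0676). It became 0.79 without the 8-cell arrays and -0.18 without the blastocyst arrays. The polarity scaffold Mpp5 and the PAR complex member Pard6a fell, with log2 differences of -1.91 and -1.44.

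Cytosolic ribosomal proteins were higher in the embryonic pool almost throughout. Of 45 measured genes 43 were higher, 40 of them in all 4 pairs, and none was lower, with a median of 3.12. Under hybridization control scaling 1 was lower, as was 1 without the 8-cell arrays. Rpl37 and Rps27 did not pass. Rps19 of the small subunit read 133, 222, 213 and 245 on the oocyte arrays, 4.3, 19.5, 2.8 and 9.8 on the 1-cell arrays, 2759, 3140.2, 2144 and 2327 on the 8-cell arrays and 1785, 1653, 1657 and 1252 on the blastocyst arrays. Oocytes stood between the 1-cell embryos, which were lowest, and the embryonic stages (4.96 ± 0.16, adjusted p = 1.22e-16). Rpsa kept the same order at higher readings, with 983 ± 187 in oocytes, 92.2 ± 13.3 in 1-cell and 7500 ± 1310 in 8-cell embryos and 5970 ± 822 in blastocysts (4.38 ± 0.12). In all, 38 of the 45 genes were lower in 1-cell embryos than in oocytes and 1 was higher (all genes: 1634 and 1494 of 12393). The median of the 45 was -2.09. The median rise was therefore larger against 1-cell embryos (4.57 to 8-cell, 3.97 to blastocyst) than against oocytes (2.22 and 1.77). Ribosomal protein genes have many processed pseudogenes, so their probe sets may read more than 1 transcript.

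Factors that build ribosomes rose in 57 of 74 cases and fell in 11 (32 and 3 in all 4 pairs, median 1.09), and 7 fell without the oocyte arrays and 6 without the blastocyst arrays. Against the 8-cell stage, 43 were lower in blastocysts and none was higher (all genes: 2578 lower and 2022 higher). The median of the list for blastocyst minus 8-cell was -0.59 with the deposited scaling. Its direction under hybridization control scaling, which moves this difference, was not examined. Polr1c, a subunit of the RNA polymerases that make ribosomal RNA and tRNA, averaged 63.2 ± 19.7 in oocytes, 40.3 ± 3.19 in 1-cell and 2340 ± 207 in 8-cell embryos and 776 ± 154 in blastocysts (4.45 ± 0.13), and Nhp2, a protein of snoRNA particles, 600 ± 33.5 in oocytes, 96.8 ± 34 in 1-cell and 4200 ± 565 in 8-cell embryos and 2380 ± 394 in blastocysts (3.64 ± 0.13). Bms1 and Noc4l, needed for the small subunit, fell, with log2 differences of -1.98 and -1.39. Translation factors rose in 33 of 40 cases and fell in 3 (20 and 3 in all 4 pairs, median 1.19), and 6 fell without the 8-cell arrays. Eif4ebp1, an inhibitor of cap-dependent initiation, rose by 3.53 ± 0.14 and Eif3c by 3.27 ± 0.29, while Eif1b and the eIF2B subunit Eif2b1 changed by -3.19 ± 0.12 and -1.40 ± 0.12. Eef1a1, the elongation factor that delivers tRNA, was high throughout, from 3660 ± 1220 in 1-cell embryos to 13400 ± 1820 at the 8-cell stage (1.33 ± 0.15). Of 20 tRNA synthetase genes 11 rose and 2 fell (median 0.62), namely Farsb (-0.94 ± 0.10) and Iars (-0.70 ± 0.12). The number that fell was 1 without the oocyte or the 8-cell arrays and 4 without the blastocyst arrays, where the median was 0.21. Yars and Aimp1 rose by 3.12 ± 0.24 and 2.98 ± 0.13.

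**Figure D4:**
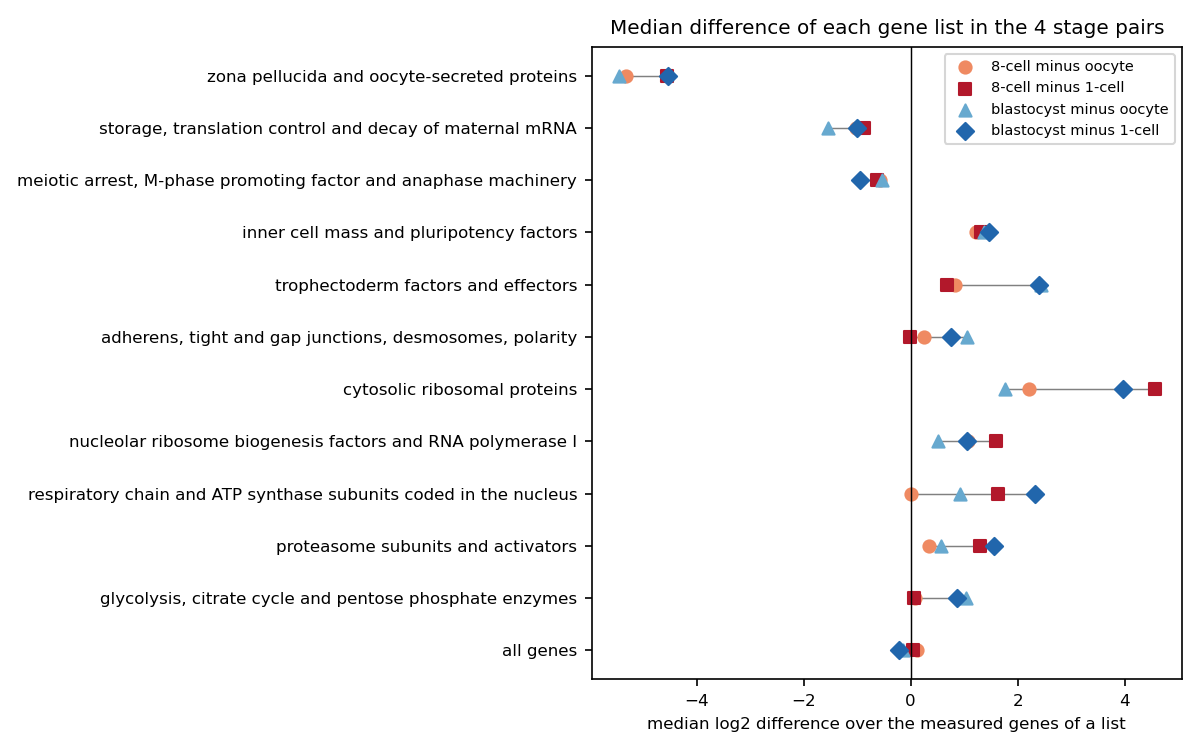
Median log2 difference over the measured genes of 11 lists and of all genes (y axis) in each of the 4 stage pairs (symbols; 8-cell or blastocyst minus oocyte or 1-cell), which share arrays. Zona and oocyte-secreted genes stay between -5.46 and -4.54 in all pairs, whereas the respiratory chain runs from 0 for 8-cell minus oocyte to 2.32 for blastocyst minus 1-cell, with 0.93 for blastocyst minus oocyte and 1.63 for 8-cell minus 1-cell.

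Respiratory chain and ATP synthase subunits coded in the nucleus were mostly higher in the embryonic pool, by an amount that differed with the stages compared. Of 73 genes 62 rose and 4 fell, but 23 and 0 did so in all 4 pairs, and the median of 1.15 combined 0 for 8-cell minus oocyte with 2.32 for blastocyst minus 1-cell. In 1-cell embryos 58 were lower than in oocytes and 4 higher (median -1.61), against 1634 and 1494 of all 12393 genes. In blastocysts 52 were higher than in 8-cell embryos and 0 lower (median 0.86), against 2022 and 2578 of all genes. Without the 1-cell arrays 38 rose and 10 fell, without the 8-cell arrays 64 rose and 1 fell, and without the blastocyst arrays 49 rose and 7 fell. Cyc1, a cytochrome of the chain, was among those called in all 4 pairs, with 182 ± 20.8 in oocytes, 59.4 ± 7.02 in 1-cell and 819 ± 132 in 8-cell embryos and 2780 ± 223 in blastocysts (3.69 ± 0.10), as was Atp5j of the ATP synthase (3.49 ± 0.22). Ndufab1 changed by -1.03 ± 0.16, and Ndufa10 by -0.58 ± 0.12, which became 0.15 without the 1-cell arrays and -0.05 without the 8-cell arrays. Mitochondrial ribosomal proteins showed a like split, with 49 of 72 higher and 10 lower in the pooled comparison, and 13 and 2 in all 4 pairs. Without the 1-cell arrays 28 were higher and 15 lower, and without the oocyte arrays 52 and 5. Mrpl19 rose by 4.05 ± 0.13 from 5.68 ± 0.96 in oocytes to 312 ± 32.6 in blastocysts, Mrpl43 rose by 3.18 ± 0.14, and Mrpl48 and Mrps25 changed by -2.75 ± 0.17 and -1.93 ± 0.15.

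Proteasome genes rose in 30 of 42 cases and fell in 7 (13 and 4 in all 4 pairs, median 0.95). Psmb5, a catalytic subunit, averaged 331 ± 29.1 in oocytes, 84.5 ± 13.2 in 1-cell and 1480 ± 292 in 8-cell embryos and 2170 ± 293 in blastocysts (3.30 ± 0.11), and the lid subunit Psmd13 rose by 3.61 ± 0.18. The regulator Psmf1 and the activator Psme4 fell, with log2 differences of -2.34 and -1.68. Chaperonin, prefoldin and cytosolic heat shock genes rose in 22 of 31 cases and fell in 5 (12 and 2 in all 4 pairs, median 1.05), and 3 fell without the 1-cell arrays and 2 without the 8-cell arrays. Cct6a of the CCT ring averaged 171 ± 46.3 in oocytes, 83.2 ± 13.8 in 1-cell and 2060 ± 303 in 8-cell embryos and 2530 ± 154 in blastocysts (4.14 ± 0.12), Fkbp4, a heat shock co-chaperone, rose by 4.00 ± 0.21, and Dnaja2 and Pfdn1 changed by -1.88 ± 0.11 and -1.34 ± 0.19. Hspa8, the constitutive heat shock protein, averaged 4300 ± 1010 in oocytes, 953 ± 224 in 1-cell and 14100 ± 1860 in 8-cell embryos and 7430 ± 2390 in blastocysts (2.33 ± 0.16).

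Spliceosome genes rose in 31 of 53 cases and fell in 9 (19 and 3 in all 4 pairs, median 0.61), led by the Sm protein Snrpb, at 72 ± 31.7 in oocytes, 50.8 ± 14.1 in 1-cell and 1850 ± 154 in 8-cell embryos and 1360 ± 143 in blastocysts (4.51 ± 0.15), and the SR protein Srsf6 (3.22 ± 0.10). Plrg1 and Prpf6 fell, with log2 differences of -2.26 and -1.55. RNA polymerase II, its general factors and Mediator fell in 28 of 59 cases and rose in 18 (17 and 5 in all 4 pairs, median -0.42), and 9 rose under hybridization control scaling. Without the blastocyst arrays 23 fell and 19 rose, with a median of -0.13. Med30 and Med22, both of Mediator, averaged 3260 ± 657 and 854 ± 43.5 in 1-cell embryos and 173 ± 52 and 86.7 ± 33.8 at the 8-cell stage (-2.97 ± 0.16 and -3.63 ± 0.16). Polr2h, a subunit shared by the polymerases, and Gtf2h4 of TFIIH rose by 2.48 ± 0.16 and 1.97 ± 0.12.

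Of 38 glycolysis, citrate cycle and pentose phosphate genes 18 rose and 11 fell (14 and 4 in all 4 pairs, median 0.37). Without the blastocyst arrays 16 rose and 15 fell, with a median of -0.16, and without the 8-cell arrays 21 rose and 5 fell, with a median of 1.01. Ldhb, the lactate dehydrogenase chain that favours pyruvate, read 6937, 6844, 5685 and 7301 on the oocyte arrays, 5798, 6711, 7271 and 7356 on the 1-cell arrays, 529, 336, 234 and 273 on the 8-cell arrays and 106, 168, 87.7 and 132 on the blastocyst arrays. The oocyte and 1-cell arrays were alike, and every embryonic value was far lower (-4.99 ± 0.15, adjusted p = 5.16e-17). Mdh1, the cytosolic malate dehydrogenase, fell to 285 ± 143 at the 8-cell stage and stood at 955 ± 52 in blastocysts (-1.82 ± 0.17). The mitochondrial isocitrate dehydrogenases Idh2 and Idh3b rose by 4.23 ± 0.19 and 3.87 ± 0.14. Of the glucose carriers, Slc2a3, the high-affinity carrier of the trophectoderm, averaged 38.4 ± 12.1 in oocytes, 45 ± 20.2 in 1-cell and 379 ± 109 in 8-cell embryos and 3670 ± 338 in blastocysts (4.51 ± 0.16), whereas Slc2a1 fell at the 8-cell stage to 37.4 ± 10 and read 229 ± 71.3 in blastocysts against 251 ± 87.5 in oocytes (-1.42 ± 0.18), so that it was not called without the 8-cell arrays. Among 30 transporters 16 rose and 7 fell (median 0.52, or 0.14 with 12 and 6 without the blastocyst arrays), with rises in the glutamate carrier Slc1a1 (4.01 ± 0.13) and falls in the cystine carrier Slc7a11 (-3.13 ± 0.18) and the glycine carrier Slc6a9 (-2.38 ± 0.23). Of 41 lysosomal and proton pump genes 23 rose and 9 fell (18 and 4 in all 4 pairs), and 5 fell without the 8-cell arrays. Ctsh and the cholesterol exporter Npc1 fell, with log2 differences of -3.22 and -1.64. Cholesterol synthesis was divided, with 9 of 21 higher and 8 lower: Pmvk and Ebp rose by 3.26 ± 0.23 and 2.67 ± 0.13, and Sc5d and the sterol sensor Scap changed by -3.44 ± 0.15 and -3.24 ± 0.27.

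DNA repair and checkpoint genes fell in 25 of 46 cases and rose in 9 (13 and 5 in all 4 pairs, median -0.51). Without the oocyte arrays 20 fell and 13 rose, with a median of -0.17. The glycosylase Neil3 and the mismatch repair gene Msh3 fell, with log2 differences of -3.88 and -3.19, and Parp1 and the endonuclease Apex1 rose by 2.73 ± 0.18 and 2.53 ± 0.23. Replication and origin licensing genes were even, with 19 of 50 higher and 18 lower. Orc5 of the origin recognition complex averaged 2690 ± 369 in oocytes, 2890 ± 169 in 1-cell and 151 ± 25.8 in 8-cell embryos and 418 ± 28.7 in blastocysts (-3.41 ± 0.10) and the polymerase subunit Pole4 changed by -3.03 ± 0.16. Ccne1, a cyclin of entry into S phase, rose to 477 ± 65.6 at the 8-cell stage and Cdc6, which loads the helicase, to 1340 ± 212. Cdkn1a, an inhibitor of cyclin-dependent kinases, averaged 42.7 ± 6.86 in oocytes, 50.5 ± 16.8 in 1-cell and 150 ± 21.7 in 8-cell embryos and 61.6 ± 13.3 in blastocysts (0.92 ± 0.16, adjusted p = 4.87e-05), but it was not called without the 8-cell arrays (0.34) or with stage as a random block. Histone-modifying enzymes and remodellers rose in 18 of 61 cases and fell in 23. Hdac1, a histone deacetylase, read 153, 101, 129 and 113 on the oocyte arrays, 31, 47.1, 50.7 and 60.5 on the 1-cell arrays, 1598, 1565, 1652 and 1825 on the 8-cell arrays and 718, 557, 798 and 814 on the blastocyst arrays. The 8-cell arrays were highest and the 1-cell arrays lowest (3.64 ± 0.12). Kat2b rose by 3.30 ± 0.18, and the Polycomb gene Bmi1 and Uhrf1, the partner of Dnmt1, changed by -3.09 ± 0.14 and -2.98 ± 0.11. Nuclear pore and transport genes were divided at 20 higher and 21 lower of 51. The importins Ipo7 and Ipo8 went apart, at 4.19 ± 0.12 and -3.53 ± 0.12, the tRNA exporter Xpot rose by 3.79 ± 0.18, and Nup98 changed by -2.44 ± 0.12.

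Because the pools are averages, some called genes belonged to 1 stage. Of all genes, 746 had stage pairs called in opposite directions, and 246 of these were still called in the pooled comparison. Cox17, a copper chaperone of the respiratory chain, read 1389, 1384, 1318 and 2064 on the oocyte arrays, 41.4, 55.3, 41.1 and 79.9 on the 1-cell arrays, 1593, 1532, 1701 and 1175 on the 8-cell arrays and 2329.9, 2792, 2216 and 1123 on the blastocyst arrays. Its 1-cell arrays were low and the other stages overlapped, and its rise of 2.47 ± 0.17 became 0.19, no longer called, without the 1-cell arrays. Psmb1 (775 ± 170 in oocytes, 33.3 ± 16.6 in 1-cell and 839 ± 288 in 8-cell embryos and 1090 ± 169 in blastocysts) and Atp5o (604 ± 96.3 in oocytes, 28.8 ± 24.8 in 1-cell and 555 ± 145 in 8-cell embryos and 1320 ± 95.9 in blastocysts) were lowest in 1-cell embryos too. Psmb1 (0.27 then) also was not called without the 1-cell arrays, while Atp5o, with its blastocyst arrays above all oocyte arrays, was (0.49). Rps20 and Rpl41, both ribosomal, were low in 1-cell embryos as well, at 99.2 ± 21.3 and 99 ± 77.9 against 1830 ± 422 and 1950 ± 1270 in oocytes, but were called in all 4 pairs. The reverse held for Il17b, a cytokine gene that read 142, 109, 173 and 254 in oocytes and under 5 on all later arrays (-1.76 ± 0.15, and 0.00 without the oocyte arrays). Gstt2, Plekhh3 and Zfp61 were likewise highest in oocytes, at 206 ± 27.6, 200 ± 43.4 and 350 ± 58.1 against 12.2 ± 8.55, 14.7 ± 3.23 and 37.8 ± 27.3 in 1-cell embryos, and Gstt2 was not called without the oocyte arrays (-0.33).

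Within the embryonic pool, Adh1, an alcohol dehydrogenase, was read in blastocysts at 2959.5, 5949, 4284 and 1501 and was at 52.9 ± 4.48 in 8-cell embryos, near its maternal level (2.89 ± 0.22, and 0.06, not called, without the blastocyst arrays). B3gnt5, a glycosyltransferase, and Id2, an inhibitor of helix-loop-helix factors, were also highest in blastocysts, at 1460 ± 124 and 1230 ± 450. Without the blastocyst arrays B3gnt5 stood at -0.10, whereas Id2, which read 129 on 8-cell array 3, was still called (1.02). Bex6 was the opposite, with 1014, 738, 582 and 844 on the 8-cell arrays and 12.9 ± 5.45 in blastocysts, and a pooled difference of 0.39, not called, without the 8-cell arrays. Glrx, a glutaredoxin, dipped: it averaged 2230 ± 335 in oocytes, 1570 ± 289 in 1-cell and 9.38 ± 6.64 in 8-cell embryos and 574 ± 83.6 in blastocysts and was lower in all 4 pairs (-4.09 ± 0.14). Lrrfip1 did the same at 2720 ± 101 in oocytes, 4500 ± 1020 in 1-cell and 74.2 ± 28.7 in 8-cell embryos and 1730 ± 253 in blastocysts (-3.21 ± 0.16). In Gsta4 (1780 ± 296 in oocytes, 373 ± 219 in 1-cell and 27.4 ± 32.7 in 8-cell embryos and 1460 ± 202 in blastocysts) and Htra1 (458 ± 87.3 in oocytes, 239 ± 60.8 in 1-cell and 9.15 ± 2.63 in 8-cell embryos and 390 ± 143 in blastocysts) the blastocyst mean lay between those of the maternal stages, and their pooled falls of -1.83 ± 0.27 and -1.91 ± 0.16 became 0.92 and 0.19 without the 8-cell arrays. Slc15a2, a peptide carrier, fell to 34.2 ± 12.3 at the 8-cell stage and rose to 1510 ± 168 in blastocysts, which left a pooled difference of 0.47 ± 0.17, or -2.07 without the blastocyst arrays. It was not called under hybridization control scaling (0.28), with the smaller pseudocount (0.37) or without oocyte array 4 (0.38). Nin, the centrosome protein ninein, was high in 8-cell embryos (1030 ± 205) and oocytes (883 ± 100) and lower in 1-cell embryos (275 ± 34.5) and blastocysts (57 ± 12.2), and its pooled difference of -0.93 ± 0.12 became 1.03 without the blastocyst arrays.

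**Figure D5:**
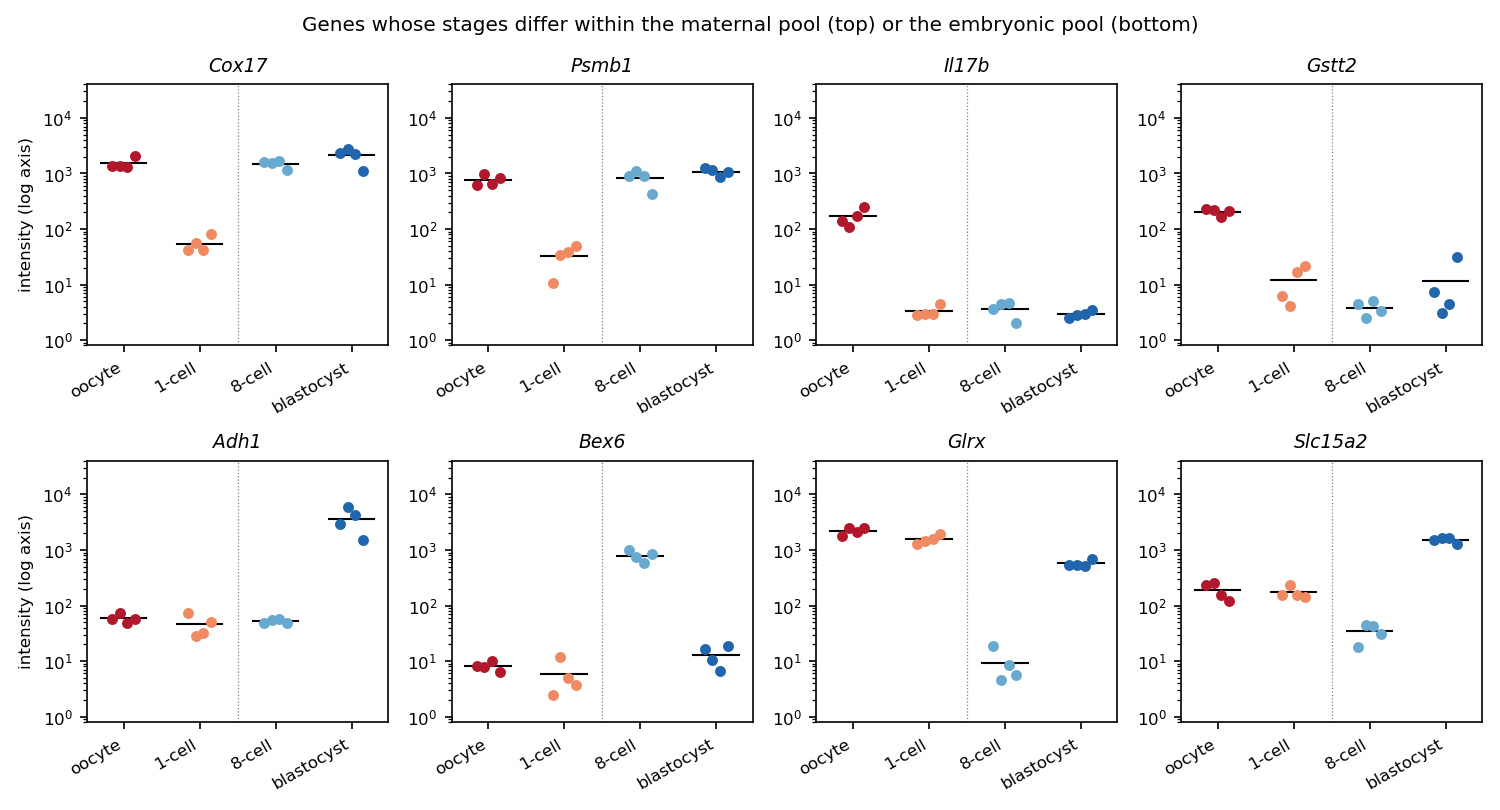
Intensity on each array (points, log axis) with the stage mean (line) for 8 genes with a large difference within the maternal pool (top) or the embryonic pool (bottom), 4 arrays per stage. Cox17 and Psmb1 are low at the 1-cell stage, Il17b and Gstt2 are high in oocytes, Adh1 and Slc15a2 are high in blastocysts, Bex6 is high at the 8-cell stage and Glrx is low there.

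Among the genes called in all 4 pairs, stage differences inside a pool were common, and their directions are given for the deposited scaling only. Of the 1972 genes that fell, 626 were higher in 1-cell embryos than in oocytes and 241 lower, against 1494 and 1634 of all genes. Of the 1584 that rose, 365 were lower in 1-cell embryos than in oocytes and 87 higher. In the embryonic pool the 1584 were divided, with 385 higher in blastocysts than in 8-cell embryos and 371 lower (all genes: 2022 and 2578). In 440 of the genes that fell, both embryonic stage means were at or under an intensity of 32, the 40th percentile of all values, and in 447 of those that rose both maternal means were. Intensities this low carry little information on level, and their differences are understated on the log2 scale used.

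At the other end, 1647 genes (13.3%) had a 95% limma interval within -1 and 1 on the log2 scale in all 4 pairs. The 10 with the highest signal were Hmgn1, Cox5a, Psma2, Rbbp4, Anapc5, Matr3, Cdt1, Srp14, Psmd4 and Ybx3. Hmgn1, a nucleosome-binding protein, averaged 4390 ± 496 in oocytes, 4010 ± 513 in 1-cell and 4680 ± 1140 in 8-cell embryos and 4810 ± 1000 in blastocysts (0.16 ± 0.14). None of its 4 pairs across the pools had an interval past 0.659. Differences within a pool were not part of this rule. The histone chaperone Rbbp4 averaged 2290 ± 224 in oocytes, 3060 ± 859 in 1-cell and 2870 ± 466 in 8-cell embryos and 2750 ± 805 in blastocysts (0.08 ± 0.16), and the nuclear matrix protein Matr3 2440 ± 233 in oocytes, 2150 ± 303 in 1-cell and 2050 ± 258 in 8-cell embryos and 1870 ± 681 in blastocysts (-0.26 ± 0.15). Cox5a, Anapc5 and Psmd4 passed the pooled test all the same, with differences of 0.38 ± 0.13, 0.32 ± 0.11 and -0.31 ± 0.12. The size of this set depends on the pseudocount, with 513 genes under the smaller and 5612 under the larger one, and all 10 stayed in it under both. Scaling changed it as well: 3 of the 10 stayed in it with quantile normalization, 4 with median centring and 0 with hybridization control scaling, and the counts over all genes were then 2169, 2246 and 860. Actb, a common reference gene, was not among them, and rose from 550 ± 97.3 in oocytes to 7960 ± 1290 in blastocysts (2.78 ± 0.14).

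A partial check of the stage labels used markers named above and not every planned marker of these cell types. Zp2, Zp3, Mos and Nlrp5 were highest in oocytes and Cdx2, Krt8 and Krt18 were highest in blastocysts. Other markers did not peak where their names would place them. Gdf9, Bmp15, Oosp1 and H1f8 were highest in 1-cell embryos, Gata6 was highest at the 8-cell stage, and Lamb1 fell between the pools. Markers of other cells that could come with the samples were mostly read at low levels, with an exception among the oviduct markers. Of 11 cumulus and granulosa markers 2 rose (Inhbb 0.77 ± 0.26 and Star 0.58 ± 0.19) and none fell, and their summed intensity was 290 to 566 on maternal arrays and 262 to 653 on embryonic arrays. Of 10 sperm markers 2 rose (Prm2 and Tnp2, at 41.8 ± 26.8 and 5.72 ± 2.4 in 8-cell embryos) and 1 fell, Odf2, an outer dense fibre gene also found in centrosomes (-2.21 ± 0.12), and the sum was 648 to 1160 and 326 to 498. Of 10 blood and fibroblast markers 1 rose (Cd52) and 2 fell (Col1a2 and Alas2), with sums of 204 to 442 and 195 to 612. None of 4 oviduct markers was called, but their sum was 126 to 229 on maternal arrays and 81.2 to 3210 on embryonic ones (median 129), from Ovgp1, the oviduct glycoprotein, which averaged 865 ± 1500 in 8-cell embryos and 58.5 ± 26.9 in oocytes. The part of oviduct RNA in the 8-cell results was not tested. The oviduct and cumulus lists held fewer markers than first planned, so their counts cover only part of that plan. No array read above an intensity of 32 for 1 of the cumulus, 3 of the sperm, 1 of the oviduct and 1 of the blood and fibroblast markers. Without the 8-cell arrays 1 cumulus marker was higher and 3 lower. Over the fits that left out a stage, each marker list had at most 2 members higher and at most 3 lower. Under hybridization control scaling no marker of these lists was called higher, and 3 cumulus, 2 sperm, 2 blood and fibroblast and 1 oviduct markers were called lower.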

How the data were processed

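Total RNA of mouse oocytes and embryos was measured on MOE430A arrays. The authors deposited 1 table of signal intensity values for 22690 probe sets, which a trimmed mean shows to have been scaled array by array. For the software, the background correction and the detection calls: not given in the sources used here. The 64 control probe sets were left out, and 20380 of the other 22626 had 1 gene symbol, 691 several and 1555 none.

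Values were turned into log2(intensity + 11.8), where 11.8 is the pooled median of 47.4 divided by 4, with no filter on low values. Stage means were fitted with limma 3.58.1 in R 4.3.3 on 16 arrays (residual df 12, eBayes with trend), after the code had been tested on simulated data, and p-values were Benjamini-Hochberg adjusted over all 22626 probe sets. A gene was represented by its probe set with the highest mean log2 value, and its other probe sets did not always carry the same call. Probe sets whose ID ends in _s_at or _x_at may bind more than 1 transcript. No array pair of 120 held identical values. No depth exists for arrays, so the number of arrays limits the precision.

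Named genes were the 15 largest rises and falls without overlap between pools, up to 2 rises and 2 falls per list, a fixed set, the 5 largest within-pool differences in each direction and the 10 brightest little-changed genes. Other list members were named after their values were seen. The members and the 33 lists were chosen with earlier results of these data known. Alternatives were the pseudocount, an intensity filter, quantile, median and hybridization control scaling, all 20 arrays, other variance models, a 2-fold threshold, stage as a block, stage means, and leaving out each array or stage, with the list counts per left-out stage added after seeing the data.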

Additional observations from a re-analysis of the deposited data

Results flagged for a closer look

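Of 540 stage groups of 4 arrays (135 genes), 31 had 1 array standing apart from the other 3 by Dixon's test, where chance flags about 1 in 20. Among genes that fell, these were blastocyst array 4 for Oas1e (73.3) and Parp12 (26.6), blastocyst array 1 for Oas1c (13.5), 8-cell array 3 and blastocyst array 2 for Bmp15 (13.3 and 13.4), 1-cell array 4 for Mos (470.4, with the others at 1155 to 1339.8), 1-cell array 4 and blastocyst array 4 for Mdh1 (1341.0 and 1032.6), oocyte array 3 for Yap1 (3817.9) and Eif1b (1656.0), oocyte array 2 for Orc5 (3236.1) and Ipo8 (607.9), blastocyst array 3 for Dppa3 (1664.2) and Plrg1 (522.2), 1-cell array 4 for Il17b (4.4) and Nin (326.3), 8-cell array 2 for Gsta4 (76.4), and oocyte array 4 and 1-cell array 1 for Psmd4 (2698.6 and 1628.7). Among genes that rose, they were oocyte array 1 and 1-cell array 4 for Crxos (1.4 and 39.9), 1-cell array 2 for Bach1 (8.0) and Rpsa (72.3), blastocyst array 1 for Timd2 (1797.1), 1-cell array 1 for Pabpc1 (189.0), oocyte array 1 for Mrpl19 (7.1), oocyte array 1 and 1-cell array 3 for Psmd13 (48.6 and 6.6), 8-cell array 4 for Eif1a (315.3), 8-cell array 2 for Hspa1b (1698.2, with the others at 572.5 to 623.5), and oocyte array 4 for Cox17 (2064.3).

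Some genes had stage pairs called in opposite directions, and their differences within a pool are given here. Ndufa10 differed by 1.46 between 1-cell embryos and oocytes (limma adjusted p = 1.38e-06) in a direction opposite to the fall between pools, and by 1.06 between blastocysts and 8-cell embryos (5.44e-05). Slc15a2 differed by 5.08 between blastocysts and 8-cell embryos (2.89e-12). Gsta4 and Htra1 differed by -2.41 and -0.92 within the maternal pool (8.09e-05 and 0.00556) and by 5.51 and 4.20 within the embryonic pool (1.15e-09 and 4.68e-11). Nin differed by -1.64 and -3.91 (1.76e-07 and 1.56e-12), and Cdt1 by -0.89 within the embryonic pool (5.72e-05).

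Signals also appeared in values that the comparison did not use, namely the 2-cell arrays and a control probe set. Ccne1 averaged 827 ± 202 (SD, n = 4) on the 2-cell arrays, where the highest of the 16 arrays of the pools read 566.9. The 18S ribosomal RNA control averaged 12700 ± 1880 on the 1-cell arrays and 196 ± 57.6 on the oocyte arrays.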

How the results depend on the processing

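Counts of probe sets called stayed within 1.5 times under the filter, both pseudocounts, quantile normalization, median centring, all 20 arrays, the other eBayes settings and 2 groups with stages ignored. Hybridization control scaling gave 1406 probe sets higher in all 4 pairs, against 2949. A 2-fold threshold gave 4906 called (2505 higher and 2401 lower), 1128 and 1188 in all 4 pairs, 654 within the maternal pool and 960 within the embryonic pool. With 1 probe set per gene, which tests fewer features, these were 7191 (3380 and 3811), 1592 and 1986, 3195 and 4733. Stage as a random block gave 6883 (3437 and 3446), and stage means gave 4087 (2049 and 2038). Leaving out 1 array at a time gave 12048 to 12361 called, 5980 to 6417 higher, 5894 to 6278 lower, 2820 to 2947 and 2900 to 3069 in all 4 pairs, 4415 to 5405 within the maternal pool and 6363 to 8313 within the embryonic pool.

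The replicate numbers did not pair the arrays: deviations of same-numbered arrays correlated between -0.135 and 0.157, and 4 of 16 arrays correlated best with their own number. With the replicate number as a block 12393 probe sets were called, against 12417 without it.

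The pooled difference of some named genes turned or vanished when a whole stage was left out. Without the blastocyst arrays the pooled difference was 0.13 for Dppa3, -0.18 for Cdh1, -2.07 for Slc15a2, -0.10 for B3gnt5 and 1.03 for Nin. It was 0.15 for Ndufa10 without the 1-cell arrays and 0.00 for Il17b without the oocyte arrays. Without the 8-cell arrays it was 0.92 for Gsta4 and 0.19 for Htra1. Cdh1 was called under quantile normalization (0.39), without the 8-cell arrays (0.79) and in 5 of the fits that left out 1 array (0.35 to 0.37). Besides Dppa3, Ndufa10, Slc15a2, Gsta4, Htra1 and Nin, Cdkn1a lost its call with stage as a random block. With each stage's mean as 1 value these lost it too, and so did more named genes. They were Sox2, Pou5f1, Mdh1, Slc2a1, Atp1b1, Eef1a1, Hspa8, Smarca4, Rps20, Ccne1 and Hspa1b. Cox17, Psmb1, Atp5o, Adh1, Bex6, B3gnt5, Id2, Il17b, Gstt2 and Lrrfip1 lost it as well. List medians near 0 (replication, chromatin, nuclear pore and cholesterol) changed sign under some scalings or left-out stages, as did those of glycolysis without the blastocyst arrays and of 2-cell activation without the 8-cell arrays. The cause of these changes was not tested. Array signal near background limits the low values, where intensities carry little order.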
